A study of Sus scrofa with 6 samples.

Results

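The genes described here are 7 genes of the circadian clock and of glucocorticoid signalling in neonatal pig Sertoli cells (NPSC): PER1, PER2, CRY1, CRY2, FKBP5, SGK1 and NR3C1. They were chosen by name from a list of 10, and 7 of the 10 were matched to 1 of the 25149 genes of the count files. PER3, NR1D1 and TSC22D3 were not matched by symbol and are not analysed here. All 7 matched genes passed the filter on low counts, as did 17512 genes in all.

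The circadian clock is a feedback loop in which the activators CLOCK and BMAL1 switch on the PER and CRY genes, whose proteins then enter the nucleus and repress those activators. Glucocorticoids bind the receptor encoded by NR3C1, which moves to the nucleus and acts on target genes such as FKBP5, TSC22D3, SGK1 and PER1 itself. PER1 is also an immediate early gene that responds within a short time to serum and to cAMP signalling through the factor CREB, so that it sits where these inputs meet. Sertoli cells are the somatic nurse cells of the seminiferous tubule.

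RNA was sequenced in bulk from 3 plates of baseline NPSC and 3 plates of complement NPSC. The cells were wild type, came from the testes of Duroc-Landrace piglets 3 to 5 days old, and were grown as a monolayer in DMEM with 10% fetal bovine serum. For 90 min before collection, part of the medium was replaced by DMEM on baseline NPSC plates and by pooled human AB serum with its complement preserved on complement NPSC plates. No sequenced group received heat-inactivated serum, so the effects of complement and of other serum components, hormones included, cannot be told apart. Piglets of 3 litters were pooled by litter at isolation, and which plate came from which litter is not given in the sources used here, so the p-values measure the spread between plates only.

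Counts on genes totalled 6796183 to 8371923 in baseline NPSC and 3641518 to 6403606 in complement NPSC. Reads on 48 olfactory receptor genes, which these cells are not known to use, served to estimate an expected background. It made up 5.47% to 9.95% of a baseline NPSC library and 6.98% to 20.5% of a complement NPSC library, the lowest of which, replicate 3, lay inside the baseline range. Of 12 Sertoli cell markers, 11 were matched and had counts, among them CLU (4694 CPM ± 1214 (SD, n = 3) in baseline NPSC), CLDN11 and INHA, while AMH was not matched. At an unadjusted p under 0.05 in edgeR, 5 of the 11 were lower in complement NPSC (GATA4, WT1, INHA, FSHR and CLDN11). Another 3 were higher (KRT18, DHH and TF). Over all tested genes, 4.28% were lower and 10.9% were higher at that threshold. Called in edgeR were 0 of the 11, where 0.103% of all tested genes were. TF had the highest LFC at 0.94, with 46.9% of its counts equal to the expected background. The summed level of the 11 markers, most of it from CLU, was 5035 to 7751 CPM, that is counts scaled to the size of the library, in baseline NPSC, while the complement NPSC libraries had 3324 to 3942, without overlap. Fewer cells of a type and less RNA per cell cannot be told apart in such data. Markers of other cells had counts too. The 3 Leydig cell markers with counts (INSL3, CYP17A1 and LHCGR) summed to 936 to 1139 CPM in baseline NPSC and 713 to 760 in complement NPSC. For 5 peritubular myoid markers, led by ACTA2, TAGLN and TPM2, the sums were 2679 to 3991 and 2048 to 3823. Lower sums were found for 4 macrophage markers led by CD68, CD14 and CSF1R (65.2 to 93.6 and 48.1 to 77.8), the endothelial markers KDR, PECAM1 and TEK (367 to 556 and 256 to 608) and 4 germ cell markers led by KIT, UCHL1 and NANOS2 (222 to 368 and 160 to 313). The Leydig marker CYP11A1 and the myoid marker MYH11 had 0 counts in every library. The part of this marker difference in the values below was not tested.

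Values below are CPM scaled by the TMM normalization of edgeR, which corrects library totals for differences in composition. The log2 fold change (LFC) is of complement NPSC over baseline NPSC, and genes were called at an adjusted p under 0.05 in edgeR's quasi-likelihood test with Benjamini-Hochberg adjustment over the 17512 tested genes.

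PER1 had the largest LFC of the 7 genes, at about 2 times the baseline level, and PER2, CRY2 and FKBP5 were also higher in every complement NPSC library than in any baseline NPSC library. NR3C1 was lower on average, and CRY1 and SGK1 lay close to their baseline levels. None of these differences passed the adjusted threshold. Of the 7 genes 0 were called, where 18 of all tested genes (0.103%) were. At an unadjusted p under 0.05, 2 of the 7 were higher and 0 lower, where 10.9% of all tested genes were higher and 4.28% were lower. Groups did not overlap for 4 of the 7, all higher, against 8.95% of all genes higher and 8.14% lower. The median LFC of the 7 genes was 0.16, and that of all tested genes was 0.02.

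**Figure D1:**
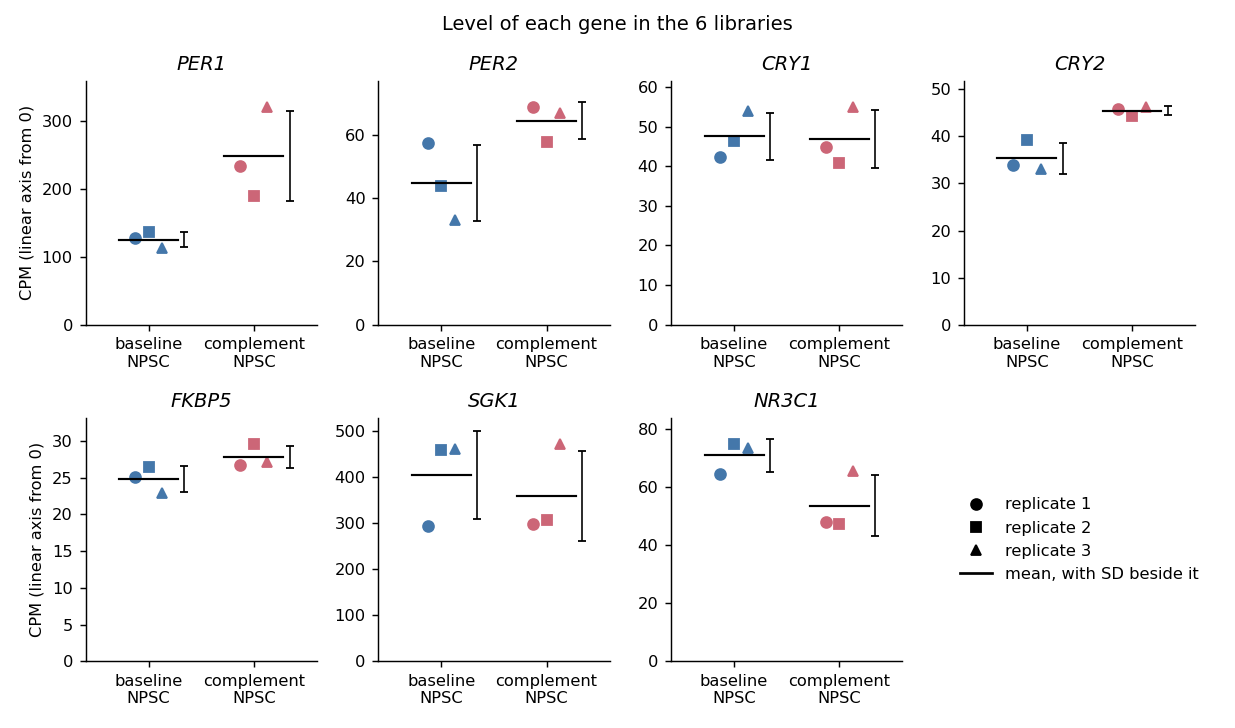
Level of each of the 7 genes in CPM (linear axis from 0) in the 3 baseline NPSC and 3 complement NPSC libraries, with the group mean as a line and the SD as a bar beside it. PER1, PER2, CRY2 and FKBP5 do not overlap between the groups, while complement replicate 3 of NR3C1 lies at 65.7 CPM, inside the baseline range.

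PER1 (ENSSSCG00000017983) encodes the period protein most quickly induced by outside signals and lies on the minus strand of chromosome 12 from 55836902 to 55851908, with 5048 bp of exon. All coordinates are those of the build used in the files, which is not named. In baseline NPSC it measured 127.3, 136.2 and 113.5 CPM (replicates 1 to 3), and in complement NPSC 233.9, 190.6 and 321.0 CPM. The lowest complement library lay well above the highest baseline library, and replicate 3, the highest, was also the complement library with the lowest expected background. The means were 126 CPM ± 11.5 (SD, n = 3) and 249 CPM ± 66.4 (SD, n = 3). The LFC was 0.98 with an SE of 0.24 and a 95% interval of 0.48 to 1.49, which corresponds to a fold of 1.98 (1.40 to 2.81).

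For PER1 the p-value was 0.000805, and the adjusted p was 0.225 in edgeR's quasi-likelihood test, so it was not called. Of all tested genes, 6.88% had a higher LFC, and 60 had a smaller p-value. The exact two-sided permutation test gave p = 0.1, the smallest that 3 plates against 3 allow. The call depended on the setting: the DESeq2 Wald test, which the study's methods name, gave an LFC of 0.97 and an adjusted p of 0.0122, in a test that called 0.398% of genes. With the expected background subtracted (0.206% of genes called), the LFC of PER1 was 1.23 (adjusted p = 0.0187 in edgeR), and with the background density as a covariate (0.36% called) it was 1.27 (adjusted p = 0.0109 in edgeR). Without complement replicate 3 it was 0.73 (adjusted p = 0.0385 in edgeR), but that fit called 10.1% of all genes.

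PER2 (ENSSSCG00000016338) encodes the partner of PER1 in the repressor complex and lies on chromosome 15 from 152264832 to 152286818, minus strand, with 5226 bp of exon. It measured 57.4, 43.8 and 33.2 CPM in baseline NPSC and 68.8, 57.7 and 67.0 CPM in complement NPSC. The groups were separate by a narrow margin, since baseline replicate 1 almost reached complement replicate 2. The means were 44.8 CPM ± 12.1 and 64.5 CPM ± 5.94 (SD, n = 3 each). The LFC was 0.53 with an SE of 0.21, a 95% interval of 0.07 to 0.98 and an adjusted p of 0.298 in edgeR's quasi-likelihood test. PER2 had the largest share of expected background among the 7 genes over all libraries together, from 15.9% to 20.5% of its counts in baseline NPSC and from 13.1% to 34.9% in complement NPSC. With that background subtracted, the LFC of PER2 was 0.67 (adjusted p = 0.478 in edgeR). Without baseline replicate 3, the lowest, the LFC of PER2 was 0.34.

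CRY1 (ENSSSCG00000000164) and CRY2 (ENSSSCG00000013270) encode the cryptochromes, which bind the period proteins and carry most of the repression. CRY1 lies on chromosome 5 from 13127782 to 13215788, plus strand, with 2748 bp of exon, and measured 42.3, 46.3 and 53.9 CPM in baseline NPSC and 45.0, 40.8 and 54.9 CPM in complement NPSC. In both groups replicate 3 was the highest, and the groups overlapped throughout. Its LFC was -0.02 with a 95% interval of -0.43 to 0.39, which leaves room for a difference of either sign. Upper-quartile normalization shifted the median LFC of all genes by 0.11 and that of CRY1 with it, and relative to the median of all genes CRY1 lay at -0.035 in the edgeR fit and at -0.040 under the upper quartile.

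CRY2 lies on chromosome 2 from 17893141 to 17916392, plus strand, with 1864 bp of exon. It measured 33.9, 39.2 and 33.1 CPM in baseline NPSC and 45.8, 44.4 and 46.2 CPM in complement NPSC, the tightest complement group of the 7 genes (45.5 CPM ± 0.971, SD, n = 3). Every complement library lay above every baseline library. The LFC was 0.36 with an SE of 0.18, a 95% interval of -0.02 to 0.75 and an adjusted p of 0.342 in edgeR's quasi-likelihood test. With the expected background subtracted it was 0.58 (adjusted p = 0.426 in edgeR).

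NR3C1 (ENSSSCG00000014401), the glucocorticoid receptor, lies on chromosome 2 from 151054873 to 151158579, minus strand, with 4283 bp of exon. It measured 64.5, 74.9 and 73.4 CPM in baseline NPSC and 47.9, 47.5 and 65.7 CPM in complement NPSC. Replicates 1 and 2 of complement NPSC lay below all baseline libraries, while replicate 3 lay just above baseline replicate 1. The LFC was -0.40 with an SE of 0.19, a 95% interval of -0.81 to 0.01 and an adjusted p of 0.335 in edgeR's quasi-likelihood test. Complement replicates 1 and 2 were also those with the most expected background, which came to 10.9% to 34.8% of the NR3C1 counts in complement NPSC and to 7.61% to 14.1% in baseline NPSC. The LFC of NR3C1 was -0.41 with that background subtracted (adjusted p = 0.486 in edgeR) and -0.11 with the background density as a covariate (adjusted p = 0.970 in edgeR), so its size depended on how the background was treated. Without complement replicate 3 it was -0.60, and NR3C1 was then called (adjusted p = 0.0472 in edgeR), in the fit that called 10.1% of all genes.

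Whether groups overlapped also depended on the scaling for NR3C1 and FKBP5. With CPM by library total, 3 of the 7 genes were higher without overlap (8.86% of all genes) and 1 was lower (5.43% of all genes). The lower gene was NR3C1, at 65.5, 67.6 and 66.5 CPM at baseline and 54.7, 54.6 and 59.0 CPM with human serum. FKBP5 overlapped on that scale, and PER1, PER2 and CRY2 did not. After subtraction of the expected background, with library sizes recomputed from the subtracted counts, 4 of the 7 genes were again higher without overlap (7.46% of all genes) and NR3C1 was lower (8.3%). On this scale PER2 ranged from 4.91 to 9.67 CPM per kb of exon in baseline NPSC and from 10.04 to 12.7 with human serum, and FKBP5 from 12.6 to 14.6 and from 15.01 to 20.2. The ranges of CRY2 were 16.05 to 18.9 and 22.99 to 27.8, and those of NR3C1 were 14.1 to 15.5 and 10.1 to 13.6. With the library sizes of the deposited counts, which include the background, PER2, FKBP5 and NR3C1 overlapped after subtraction.

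FKBP5 (ENSSSCG00000001549) encodes a co-chaperone that holds the receptor in a state of low hormone affinity and is among the best known readouts of receptor activity. It lies on chromosome 7 from 36373069 to 36478480, minus strand, with 1611 bp of exon, and had the fewest counts of the 7 genes (120 to 174 per library, the lowest of which has a counting error of 9.13%). It measured 25.1, 26.5 and 22.9 CPM in baseline NPSC and 26.7, 29.6 and 27.1 CPM in complement NPSC. The complement libraries lay above the baseline libraries by a margin smaller than the counting error. The LFC was 0.16 with a 95% interval of -0.26 to 0.59 and an adjusted p of 0.653 in edgeR's quasi-likelihood test. It was 0.33 with the expected background subtracted (adjusted p = 0.576 in edgeR).

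SGK1 (ENSSSCG00000021443) encodes a kinase that acts on ion channels and cell survival and is induced by glucocorticoids and by serum. It lies on chromosome 1 from 33250475 to 33256209, plus strand, with 2408 bp of exon. It measured 292.8, 458.5 and 459.1 CPM in baseline NPSC and 297.3, 305.6 and 471.2 CPM in complement NPSC. The spread inside each group was wider than the distance between the means (403 CPM ± 95.8 and 358 CPM ± 98.1, SD, n = 3 each). The LFC was -0.17 with a 95% interval of -0.76 to 0.42 and an adjusted p of 0.734 in edgeR's quasi-likelihood test. The LFC ranged from -0.45 (without complement replicate 3) to -0.053 (without complement replicate 1) when 1 library was left out, and it turned to 0.07 with the expected background subtracted and to 0.36 with the density as a covariate.

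**Figure D2:**
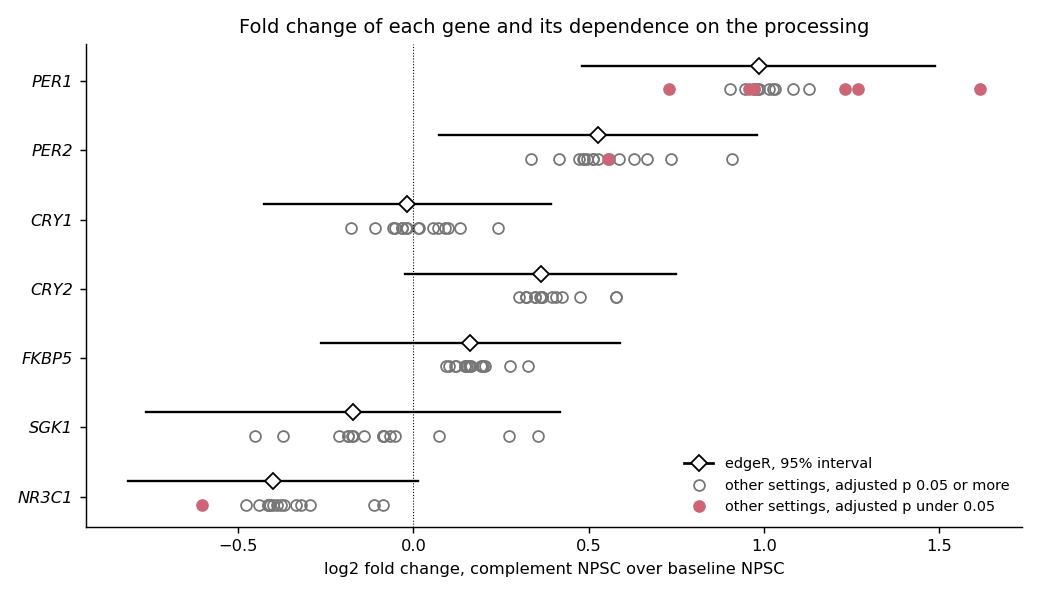
LFC of each gene (complement NPSC over baseline NPSC) in the edgeR fit with its 95% interval, and below it the LFC under each of 16 other settings, filled where the adjusted p was under 0.05. PER1 was positive throughout, from 0.73 to 1.62, and NR3C1 negative throughout, while CRY1 and SGK1 lay on both sides of 0.

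Expected background took a different share of each gene, because it grows with exon length while the counts differ. It was smallest in SGK1, at 0.684% to 1.74% of counts in baseline NPSC and 0.858% to 3.04% in complement NPSC. In PER1 it came to 4.93% to 8.41% and to 2.64% to 10.2%. In CRY1 the same share reached 26.0% and in FKBP5 21.2%, both in complement NPSC.

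**Figure D3:**
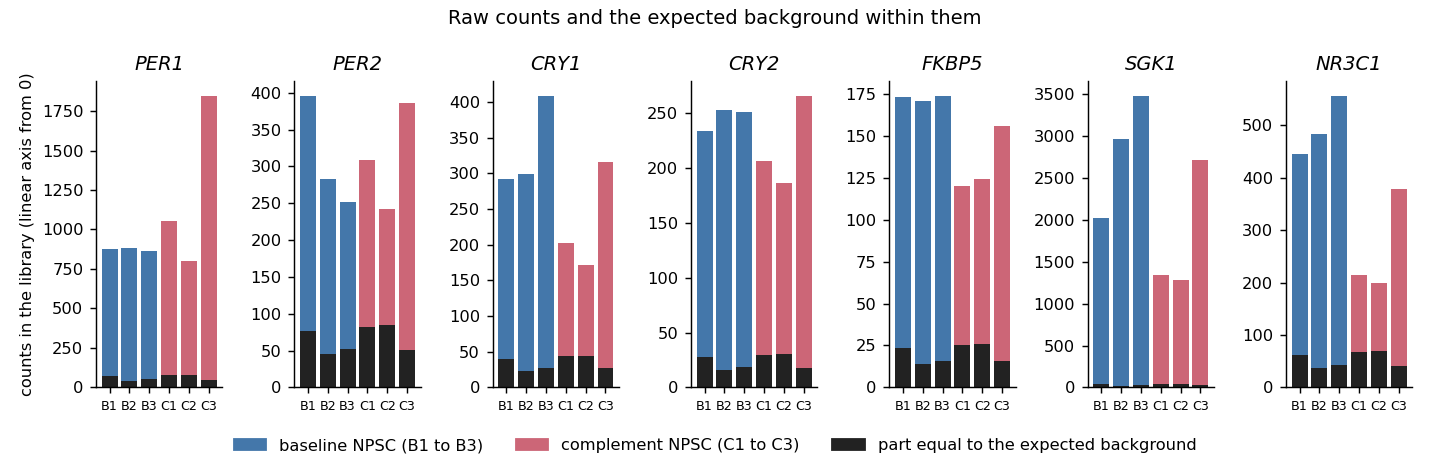
Counts of each gene in the 3 baseline NPSC libraries (B1 to B3) and 3 complement NPSC libraries (C1 to C3) on a linear axis from 0, with the dark part equal to the expected background (the count per base on olfactory receptor genes, multiplied by the exon length). PER1 reached 1848 counts in C3 against 861 to 880 in B1 to B3, although C3 had fewer counts in all than any of them.

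Levels of different genes were compared per kilobase of exon. In baseline NPSC, SGK1 stood highest at 168 CPM per kb ± 39.8 (SD, n = 3), followed by PER1 at 24.9 ± 2.27. CRY2 (19.0), CRY1 (17.3), NR3C1 (16.6) and FKBP5 (15.4) came next, and each of these overlapped with its neighbour in the order. PER2 was lowest at 8.57 CPM per kb. In complement NPSC, SGK1 (149 CPM per kb) and PER1 (49.2) kept the first places, CRY2 (24.4) came next without overlap, and FKBP5 (17.3), CRY1 (17.1), NR3C1 (12.5) and PER2 (12.3) followed, each overlapping with its neighbour. NR3C1 and PER2, which were well apart in baseline NPSC, thus had nearly equal levels in complement NPSC. After subtraction of the expected background with recomputed library sizes, the places of the genes were the same, except that PER2 and NR3C1, at 11.3 CPM per kb each, changed places in complement NPSC.

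Ratios of 2 genes inside a library do not depend on how libraries are scaled. Of the 21 ratios among the 7 genes, 10 did not overlap between the groups, among them 5 of the 6 with PER1 as numerator, all higher in complement NPSC, and 5 of the 15 without PER1. Of the 6 ratios with NR3C1 as denominator 5 did not overlap either, so this count is not particular to PER1. Ratios that share a gene are not independent of each other or of the values of that gene above. The same share over all pairs of tested genes is not given here, so these counts are a description only. PER1 over NR3C1 was 1.97, 1.82 and 1.55 in the baseline libraries and 4.89, 4.02 and 4.89 in the complement libraries. PER1 over SGK1, both of them targets of the receptor, was 0.435, 0.297 and 0.247 at baseline and 0.787, 0.624 and 0.681 with human serum. PER1 over FKBP5 was 5.08, 5.15 and 4.95, and then 8.76, 6.44 and 11.8. The ratio of PER1 to PER2 overlapped, at 2.22, 3.11 and 3.42 at baseline and 3.40, 3.30 and 4.79 with human serum, but after subtraction of the expected background all 6 ratios with PER1 were higher without overlap. With 3 libraries a group the smallest exact permutation p for each ratio is 0.1.

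**Figure D4:**
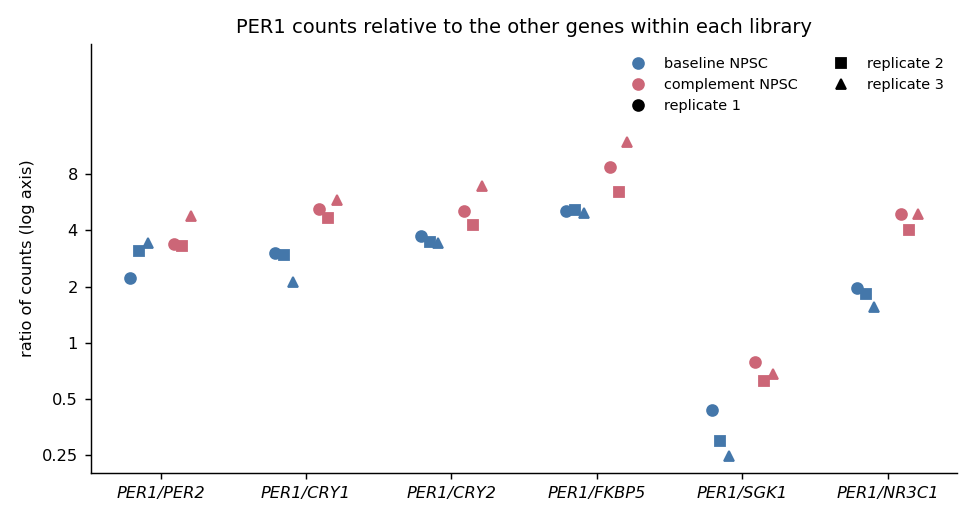
Ratio of PER1 counts to the counts of each of the other 6 genes in every library, on a log axis. For every ratio but that to PER2, the lowest complement NPSC library lies above the highest baseline NPSC library.

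Of 23 other clock genes, 18 were matched and tested, and 0 were called in edgeR. BHLHE40 was among those not matched by symbol and so was not tested, although the study lists it as significantly higher after exposure. At an unadjusted p under 0.05, 3 were higher, RORB and NFIL3 among them, and 2 were lower, CIPC among them, where 10.9% and 4.28% of all tested genes were. The median LFC was 0.09, and that of all tested genes 0.02. The repressor NFIL3 measured 89.4 CPM ± 14.3 in baseline NPSC and 133 CPM ± 50.6 in complement NPSC (SD, n = 3 each), and the activators CLOCK and ARNTL (BMAL1) overlapped between groups, with LFC of -0.39 and 0.00. CIPC, an inhibitor of CLOCK, had the lowest LFC, at -0.52 (110 CPM ± 6.43 and 76.8 CPM ± 11.8, SD, n = 3 each), and its groups did not overlap. RORB had the highest, at 0.92, with an expected background equal to 68.1% of its counts. The expected background is an average over olfactory receptor genes and can exceed the counts of a gene, as in DBP, where it came to 163% of them, so that each share and each subtracted value printed here is an estimate. The genes with the most CPM were NR1D2 (165 and 141 CPM), CSNK1E (131 and 122) and NFIL3.

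Of 39 genes known as glucocorticoid receptor targets, 24 were matched and 23 tested, among them PER1, FKBP5 and SGK1. Of the 23, 0 were called in edgeR. At an unadjusted p under 0.05, 4 were higher (PER1, DUSP1, GADD45B and TAT) and 2 were lower (BCL6 and FBXO32), beside 10.9% and 4.28% of all tested genes. The median LFC was 0.17. DUSP1, a phosphatase that switches off MAP kinases, measured 179, 173 and 152 CPM in baseline NPSC and 287, 238 and 392 CPM in complement NPSC. Its LFC was 0.86 (adjusted p = 0.261 in edgeR). FBXO32, a ubiquitin ligase subunit of muscle wasting, had the lowest LFC at -0.81 (48.5 CPM ± 11.7 and 27.6 CPM ± 6.53, SD, n = 3 each, adjusted p = 0.264 in edgeR). TAT had the highest at 1.06, with 71.8% of its counts equal to the expected background. FOXO1, among the 3 with the most CPM, had an LFC of -0.01. Of the genes of this list, DUSP1 and PER1 were called with the background subtracted, and GADD45B in addition with the covariate.

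Of 21 genes that carry or assist the receptor, 20 were matched and 19 tested, and HSD11B1, the enzyme that regenerates active glucocorticoid, had 0 counts in every library. Of these 19 genes, 0 were called in edgeR, where 0.103% of all tested genes were. The 19 held 0 genes higher and 0 lower at an unadjusted p under 0.05 in edgeR, beside 10.9% and 4.28% of all tested genes. A negative LFC was found for 18, and the median was -0.30, where that of all tested genes was 0.02. The chaperones HSP90AB1 (1615 CPM ± 296 and 1272 CPM ± 307, SD, n = 3 each) and HSP90AA1 (733 and 550) and the coactivator EP300 (554 and 425) had the most CPM. STIP1, which passes the receptor from HSP70 to HSP90, had the lowest LFC at -0.47. HSD11B2 had the highest at 0.02, with 77.9% of its counts equal to the expected background. The median was negative under all scalings tried, but its size depended on the background and on 1 library. It was -0.11 with the expected background subtracted, 0.01 with the background density as a covariate and -0.48 without complement replicate 3. Genes with a negative LFC were 15 of 18 tested with the background subtracted, 8 of 19 with the covariate and 18 of 19 without complement replicate 3.

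Of 20 genes of cAMP and CREB signalling, 13 were matched and 12 tested. The list was written with earlier results of these data known, so the count called is no test of it. In edgeR 4 were called, all higher, where 0.103% of all tested genes were called. They were NR4A3 (LFC 2.97, 24.0 CPM and 188 CPM), EGR1 (2.02), JUNB (1.43) and NR4A2 (1.21, 21.7 CPM and 50.1 CPM), all of them immediate early transcription factors. Only NR4A3 was called under all settings tried: EGR1 and JUNB were not called with DESeq2's size factors or without the 20 genes with most counts, and NR4A3 alone was called without baseline replicate 2 and without baseline replicate 3. FOS, of the same class, had an LFC of 0.00 and a wide spread, at 101, 231 and 123 CPM in baseline NPSC and 120, 157 and 178 CPM in complement NPSC, so that its equal means of 152 CPM rest on baseline replicate 2. ATF1 had the lowest LFC at -0.21. The median LFC of the list was 0.07. PER1, with an LFC of 0.98, was below these 4 and above the other 8.

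**Figure D5:**
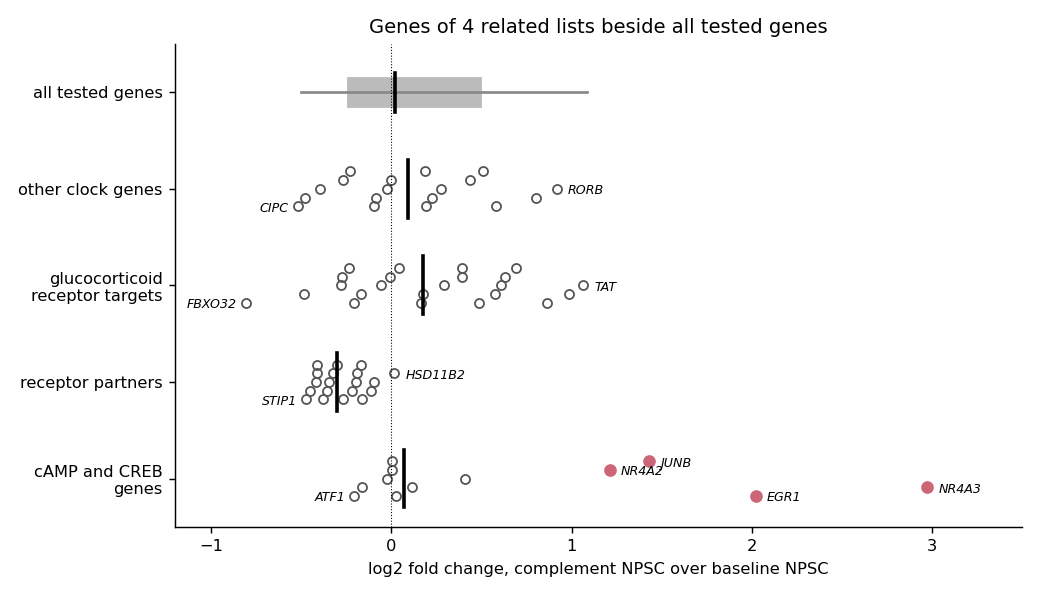
LFC of each tested gene of 4 related gene lists, with the median as a vertical line and called genes filled, beside all tested genes (the box spans the 25th to 75th percentiles and the line the 5th to 95th). The 4 called genes all belong to the cAMP and CREB list, and the receptor partners lie to the left of 0 with the exception of HSD11B2.

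The genes whose levels ran most like those of PER1 over the 6 libraries were KDM6B (Pearson's r = 0.996), DUSP1 (0.996) and NFKB1 (0.988), of 11053 tested genes with a symbol. This r is a description of log2 CPM over 6 libraries that share group, depth and background. KDM6B measured 65.7, 72.1 and 57.7 CPM in baseline NPSC and 121.7, 102.8 and 195.6 CPM in complement NPSC, the same order of libraries as for PER1. For PER2 the nearest were HOXC10 (0.989), BVES (0.988) and PRPF40B (0.985), and for NR3C1 they were AAR2 (0.997), DAP3 (0.996) and EPS15 (0.996). The number of genes with an r over 0.95 was 35 for PER1, 54 for PER2 and 494 for NR3C1.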

How the data were processed

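RNA was sequenced from 3 baseline NPSC and 3 complement NPSC plates. The authors deposited raw counts per gene for each library, without normalization, with coordinates and the summed exon length. Their processing notes name Trimmomatic 0.36, STAR 2.5.2b and featureCounts of Subread 1.5.2. The genome build, annotation and strand setting are not given in the sources used here. Identifiers were matched to symbols through a table of pig gene names (11804 of 25149).

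Groups were compared in edgeR 4.0.16 (R 4.3.3) with filterByExpr, TMM, glmQLFit and the quasi-likelihood F-test, two-sided. The SE is the size of the LFC over the square root of F. Log2 CPM used a prior count of 2. For the expected background, counts on 48 olfactory receptor genes were divided by their 45945 bp of exon. This was multiplied by the exon length of each gene. The covariate was the log2 of the olfactory receptor CPM, by library total, per kilobase of exon. The fit was tested on counts with known changes. DESeq2 1.42.0, other scalings and filters, a replicate block and leaving out each library were alternatives.

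The genes and lists were chosen with earlier results of these data known. Named were all 10 genes, of each gene list the called genes, the 3 with most CPM and those with the highest and lowest LFC, and of each marker list the 3 with most CPM; for the 3 genes with the largest LFC in size, the 3 most alike. Also named were most list genes, and the Sertoli markers, at an unadjusted p under 0.05 in edgeR, a choice made after their values were seen. The same holds for CLOCK, ARNTL, DBP, DDX4 and PTPRC, and BHLHE40 was named because the study lists it. A few genes of the lists are not reported here by name. Plots used matplotlib 3.10.9.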

Additional observations from a re-analysis of the deposited data

How the results depend on the processing

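The labels number the libraries 1 to 3 in each group and do not say whether same-numbered libraries share cells. Deviations from the group mean correlated at 0.46, 0.03 and 0.48 in same-numbered pairs and at -0.50 to 0.28 in differently numbered pairs. These values do not settle whether the libraries were paired. The main fit took no pairing, and the replicate block is an alternative. With the replicate block 2515 genes were called in place of 18, with 2 of the 7 genes (PER1, LFC 0.96; PER2, 0.56), 4 other clock genes and 8 receptor targets; with the block and the covariate together the counts were 126, 1, 1 and 3, with LFC of 1.62 for PER1, 0.91 for PER2, 0.13 for CRY1, 0.58 for CRY2 and 0.27 for SGK1, and PER2 was no longer called (adjusted p = 0.175 in edgeR). The median of the receptor partners was -0.048 in that fit, and 11 of the 19 had a negative LFC.

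The DESeq2 Wald test called 67 genes, with 1 of the 7 and 1 receptor target, in both cases PER1 (LFC 0.97). With no filter 31 genes were called. With the background subtracted 31 were called, with 1 of the 7 and 2 receptor targets (LFC of PER1 1.23, PER2 0.67, CRY1 0.098, CRY2 0.58, FKBP5 0.33, SGK1 0.074 and NR3C1 -0.41). With the covariate 63 were called, with 1 of the 7, 1 other clock gene and 3 receptor targets (PER1 1.27, CRY1 0.24, SGK1 0.36). The cAMP and CREB list had 2 called genes with DESeq2's size factors and 2 without the 20 genes with most counts. CRY1 was 0.091 under the upper quartile, a scaling that shifts the median of all genes by 0.11, and 0.015 with at least 10 counts in every library. Relative to that median PER1 was 0.97 in the edgeR fit and 0.95 with the upper quartile.

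Leaving out 1 library gave 9 to 1855 called genes (1855 without complement replicate 3, 327 without baseline replicate 1, 9 without baseline replicate 2), 0 to 2 of the 7, 0 to 3 other clock genes, 0 to 4 receptor targets, 0 to 4 receptor partners and 1 to 4 cAMP and CREB genes; the highest count of each of the first 4 lists came without complement replicate 3. The LFC then ranged from 0.73 to 1.13 for PER1, from 0.34 to 0.73 for PER2, from -0.18 to 0.069 for CRY1, from 0.30 to 0.42 for CRY2, from 0.092 to 0.20 for FKBP5, from -0.45 to -0.053 for SGK1 and from -0.60 to -0.32 for NR3C1. Over all 17 settings PER1 was called in 6, PER2, CRY2 and FKBP5 were positive in 17 and NR3C1 was negative in 17, from -0.60 to -0.087 (block and covariate). The causes were not tested. Recomputing library sizes after the subtraction was chosen after seeing the data; 5 of the 7 genes then did not overlap, against 4 as deposited. Counting error was 1.69% to 9.13% per value, and covers counting only.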

Other observations

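Within 250 kb of PER1 lay 24 other genes of the files, of which 21 were tested and 0 were called in edgeR. At an unadjusted p under 0.05, 2 of the 21 were higher (ENSSSCG00000028166, LFC 1.40, and ALOX12B, 0.70), a share close to the 10.9% of all tested genes, and the median LFC was 0.27 against 0.02 over all tested genes. KDM6B, the gene most like PER1 over the 6 libraries, also lies on chromosome 12, from 55465577 to 55474333 on the plus strand, at a distance of 363 kb with 16 genes between them. KDM6B encodes a histone demethylase, and its LFC was 1.11 with an SE of 0.24 (adjusted p = 0.149, edgeR). These neighbours were looked up after the values were seen.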
